A study of Mus musculus with 12 samples.

Results

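Small structural noncoding RNAs are the short, untranslated RNAs that form the core of the cell's RNA-processing machines: the box C/D and box H/ACA snoRNAs, the scaRNAs of Cajal bodies, the spliceosomal U RNAs, the 7S RNAs and the RNase P family. They were chosen by gene symbol (the prefixes Snord, Snora, Scarna, Rnu, Rny, Rn7s, Rprl, Rmrp and Rpph1) among entries with at least 60 raw counts summed over the 12 libraries. The rule found 24 of the 15207 entries in the deposited table: 6 box C/D snoRNAs, 4 box H/ACA snoRNAs, 4 scaRNAs, 4 U snRNAs, 4 7S RNAs and 2 RNase P-like RNAs. All 24 passed the filter on low counts and were among the 14392 genes tested. Rprl2 and Rprl3 met the rule and the filter only through their counts in the wild-type libraries. Y RNAs, the RNase MRP RNA and the RNase P RNA itself were not analysed here. In GENCODE vM39, Snord43 carries the type miRNA and Scarna9 the type snoRNA; both were classed here by symbol.

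RNA-seq had been made from mouse embryonic fibroblasts immortalised with the human papillomavirus protein E6, which drives the degradation of p53, a background that all 3 lines share. One line is labelled as lacking p27, the cyclin-dependent kinase inhibitor encoded by Cdkn1b (p27 KO, the KO-labelled line), and 2 are wild-type lines (WT clone2 and WT clone1). Each line has 4 libraries, numbered as experiments 1 to 4, from cells grown for 24 h in DMEM with 10% fetal bovine serum; the labels give no strain or age, and with 1 KO-labelled line the genotype and the line cannot be told apart. Whether the 4 experiments of a line were cultures of their own is not in the labels; a p-value therefore rests on the spread among libraries alone, and this spread could be technical. Cdkn1b itself was at 83.7 to 118 CPM (counts relative to the TMM-scaled library total) in the KO-labelled libraries, at 88.7 to 120.0 CPM in WT clone2 and at 86.8 to 101 CPM in WT clone1 (log2 fold change over both WT lines 0.12 ± 0.11, SE; edgeR adjusted p = 0.499). Since 87.0% of its transcript is untranslated and the labels leave out which stretch was deleted, these counts do not check the label. Libraries held 15425327 to 23982524 counts in identified genes, and the 24 small RNAs took 0.160 to 0.405% of them. All 8 fibroblast markers looked at were listed, with summed levels of 13955 to 18436 CPM in the KO-labelled libraries, 16579 to 22100 CPM in WT clone2 and 10857 to 16525 CPM in WT clone1. Of other cell types, summed blood markers reached at most 4.31 CPM, epithelial markers 1.49 CPM, and endothelial markers 2.19 CPM in the KO-labelled line, 0.621 CPM in WT clone2 and 15.8 CPM in WT clone1; Ptprc, Epcam and Cdh5, which define these types, were not analysed here. The part of such cells in the results was not tested, and in these bulk samples fewer cells of a type and less RNA per cell cannot be told apart.

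As background, small structural RNAs act as guides, scaffolds or catalysts inside ribonucleoproteins. Box C/D snoRNAs guide 2′-O-methylation and box H/ACA snoRNAs guide pseudouridylation, mostly of ribosomal RNA, and scaRNAs do the same for spliceosomal RNAs. Most vertebrate snoRNAs lie in introns of other genes and are released when the intron is spliced out, whereas 7SK, the 7SL RNA of the signal recognition particle and the RNase P RNA are made by RNA polymerase III from genes of their own. Many of these RNAs lack a poly(A) tail, and fragments of their size are poorly kept by standard RNA-seq library protocols; the sources used here do not give how RNA was selected and sized or whether counting used the strand.

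The classes differed widely in level. Per kilobase of annotated length, mean levels over the 12 libraries were 5033 CPM for Rn7sk, 1339 CPM for Rn7s2, 721 CPM for Rn7s1, 313 CPM for Rn7s6, 258 CPM for Scarna2 and 175 CPM for Rprl3. The other 18 lay between 46.3 CPM per kilobase (Scarna9) and 6.75 CPM per kilobase (Snord13). Rn7sk alone gave 64.4% of the counts of the 24 RNAs and Rn7s2 another 15.7%, so the members range from 367164 counts in all for Rn7sk to 156 for Snord13, and the low members are the less precisely measured. Summed over its 4 members, the 7S class stood at 2257 ± 301 CPM in the KO-labelled libraries, 2825 ± 625 CPM in WT clone2 and 2043 ± 518 CPM in WT clone1 (SD, n = 4 each). The box C/D class stood at 20.1 ± 4.87 CPM in the KO-labelled libraries, 20.6 ± 13.4 CPM in WT clone2 and 15.7 ± 6.27 CPM in WT clone1, and its level was 24.6 to 40.6 CPM in the 3 experiment 1 libraries, against 9.96 to 19.0 CPM in the 9 libraries of experiments 2 to 4. The box H/ACA class stood at 9.57 ± 1.96 CPM in the KO-labelled libraries, 13.1 ± 6.18 CPM in WT clone2 and 8.54 ± 2.42 CPM in WT clone1, with 11.97 to 22.3 CPM in the 3 experiment 1 libraries, against 6.31 to 10.7 CPM in the 9 libraries of experiments 2 to 4. In both snoRNA classes every experiment 1 library was above every library of experiments 2 to 4. The scaRNA class (111 ± 15.9 CPM in the KO-labelled libraries, 130.0 ± 25.4 CPM in WT clone2 and 116 ± 20.1 CPM in WT clone1) and the U snRNA class (5.87 ± 1.19 CPM in the KO-labelled libraries, 5.65 ± 1.26 CPM in WT clone2 and 5.46 ± 0.700 CPM in WT clone1) overlapped between lines and between experiments. The RNase P-like class was at 0.172, 0.0592, 0.0655 and 0 CPM in the KO-labelled libraries, at 108, 91.4, 80.3 and 60.9 CPM in WT clone2 and at 137, 54.0, 72.3 and 72.4 CPM in WT clone1.

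**Figure D1:**
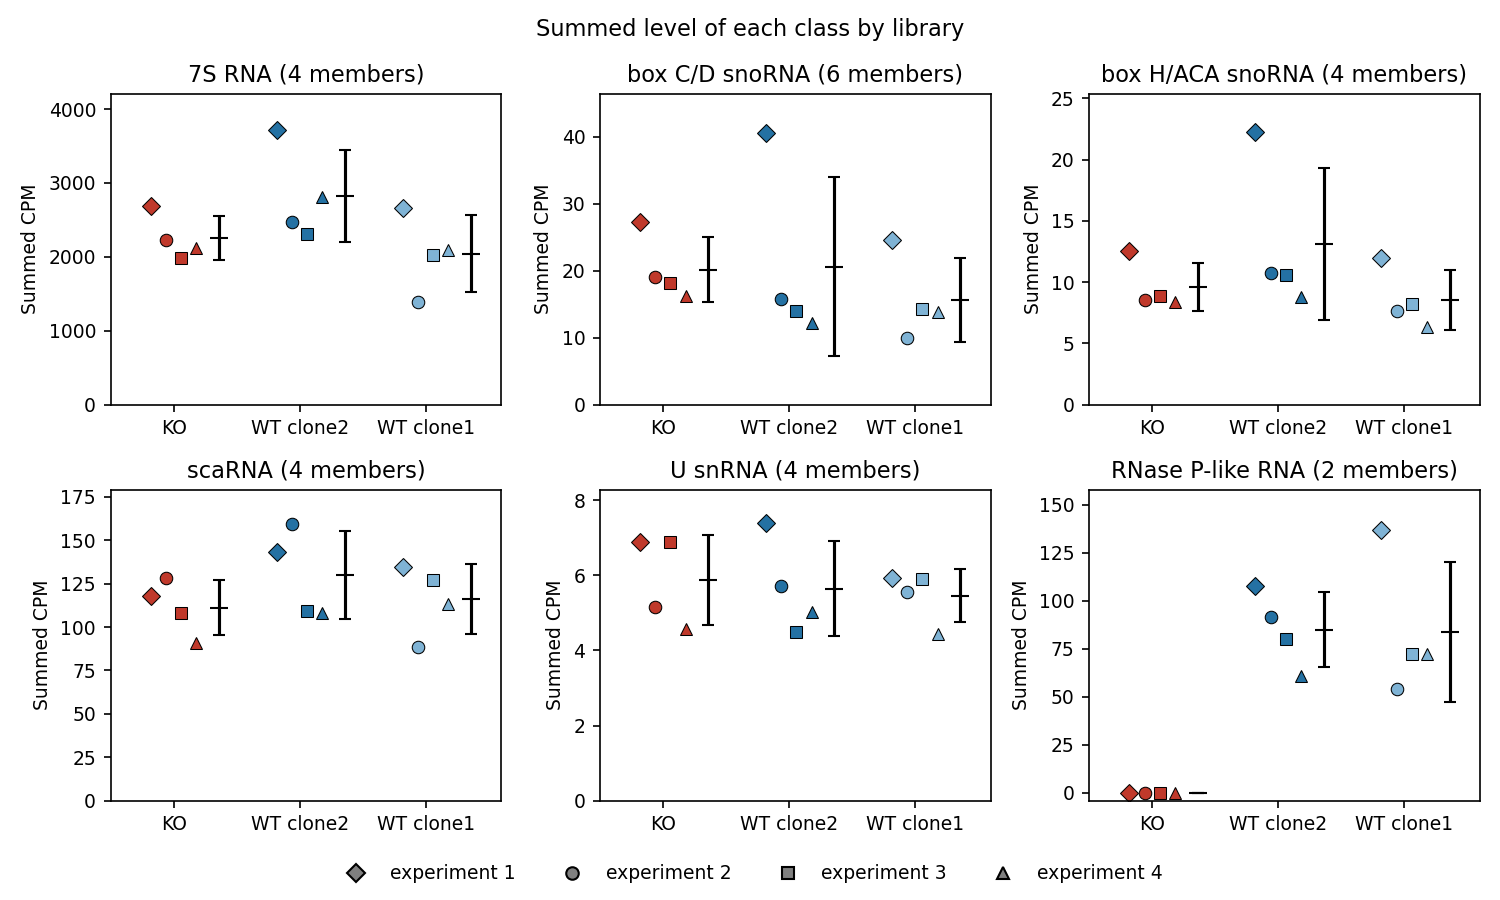
Summed CPM (TMM-scaled) of the members of each class, by library, in the KO-labelled line, WT clone2 and WT clone1; marker shape gives the experiment and the bar the mean ± SD (n = 4). Experiment 1 is the highest library of each line for the box C/D and box H/ACA snoRNAs, and the RNase P-like RNAs are near 0 in all 4 KO-labelled libraries.

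Between the KO-labelled line and both WT lines pooled, 2 of the 24 RNAs passed the test, both lower: Rprl3 and Rprl2. Both had been kept for testing by their WT counts, 11550 for Rprl3 and 1292 for Rprl2. The KO-labelled libraries added 5 counts for Rprl3 and 0 for Rprl2. Over all genes, 18.8% passed in either direction and 10.3% were lower, against 8.33% of the members, whose median log2 fold change was 0.04, against -0.03 over all genes. The difference between these shares was not tested. In the authors' deposited table, whose direction is not stated but matches KO-labelled over WT by its signs, 3 of the 24 had an adjusted p-value under 0.05: Rprl2 and Rprl3, at log2 fold changes of -9.55 and -9.99, and Rn7s2 at -0.50 (adjusted p = 0.0235). Of all identified genes with an adjusted p-value in that deposited table, 30.7% were under 0.05. Against WT clone2 alone 3 members passed, all lower, where 38.4% of all genes passed and 19.2% were lower. Against WT clone1 alone 1 was higher and 2 were lower, where 36.1% of all genes passed, 16.8% higher and 19.3% lower. These comparisons share the KO-labelled libraries.

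Rprl3 and Rprl2 are annotated as RNase P-like RNAs, that is, as relatives of the catalytic RNA of RNase P, the ribonucleoprotein that trims the leader from transfer RNA precursors; whether they act in that enzyme is not established by these files. Rprl3 lies on the minus strand of chromosome 8 (chr8:3853069-3853358, GRCm39) and Rprl2 on the plus strand of chromosome 3 (chr3:22305538-22305827), both of 290 bases, in no annotated gene on the same strand. The sequences are shown because the largest difference among the small RNAs rests on them; capitals mark the 23 positions at which they differ.
Rprl3: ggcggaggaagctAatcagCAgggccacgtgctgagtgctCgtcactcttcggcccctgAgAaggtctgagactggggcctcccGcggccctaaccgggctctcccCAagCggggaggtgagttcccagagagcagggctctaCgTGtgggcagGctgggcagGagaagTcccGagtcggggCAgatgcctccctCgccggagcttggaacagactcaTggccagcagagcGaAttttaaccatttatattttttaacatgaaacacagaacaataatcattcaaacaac
Rprl2: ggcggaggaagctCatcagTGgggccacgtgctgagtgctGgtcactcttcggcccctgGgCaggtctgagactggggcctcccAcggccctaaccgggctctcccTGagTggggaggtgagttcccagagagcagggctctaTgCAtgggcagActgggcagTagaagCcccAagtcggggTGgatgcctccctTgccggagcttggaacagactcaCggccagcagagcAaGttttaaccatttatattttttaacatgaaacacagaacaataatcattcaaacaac
They are 92.1% identical with no gap, and 74.5% and 74.2% identical to the RNase P RNA gene Rpph1 of the reference genome. The 250 bases upstream of each were compared as well, since the identity goes on there; capitals mark the bases that differ or have no partner.
Rprl3 upstream: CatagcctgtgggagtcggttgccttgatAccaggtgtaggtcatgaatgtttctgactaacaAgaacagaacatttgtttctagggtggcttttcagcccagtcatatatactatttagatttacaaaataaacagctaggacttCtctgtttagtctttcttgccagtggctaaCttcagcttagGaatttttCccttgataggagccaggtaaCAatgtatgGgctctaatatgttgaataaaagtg
Rprl2 upstream: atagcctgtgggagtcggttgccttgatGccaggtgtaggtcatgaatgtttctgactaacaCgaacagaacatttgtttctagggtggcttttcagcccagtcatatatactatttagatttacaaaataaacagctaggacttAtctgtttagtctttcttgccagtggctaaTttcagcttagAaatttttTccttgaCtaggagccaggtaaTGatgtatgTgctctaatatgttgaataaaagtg
These flanks (chr8:3853359-3853608 and chr3:22305288-22305537) are 95.6% identical, above the 92.1% of the RNAs themselves, whereas the 250 bases upstream of Rprl3 and of Rpph1 are 45.7% identical. No other place in the genome matched either RNA at 95% identity over 90% of its length, a limit that the pair itself, at 92.1%, does not reach.

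Rprl3 was at 0.172, 0.0592, 0.0655 and 0 CPM in the KO-labelled libraries, at 97.8, 81.0, 72.1 and 55.6 CPM in WT clone2 and at 122, 47.7, 64.5 and 66.6 CPM in WT clone1. These are 3, 1, 1 and 0 reads in the KO-labelled libraries, against 985 to 2359 reads in each WT clone2 library and 858 to 2347 in each WT clone1 library. Every KO-labelled library lay below every WT library, which held for 7.3% of all genes tested. Over the group, the 5 KO-labelled reads put Rprl3 1026-fold below WT clone2 (95% exact Poisson interval on those reads, 439.6 to 3159) and 1007-fold below WT clone1 (432 to 3102), intervals that cover counting error only. The fitted log2 fold change over both WT lines was -9.86 ± 0.48 (SE; edgeR adjusted p = 6.3e-08).

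Rprl2 had no read in any KO-labelled library. It was at 9.66, 10.4, 8.13 and 5.36 CPM in WT clone2 and at 14.6, 6.28, 7.86 and 5.81 CPM in WT clone1, or 93 to 281 reads per library. Taking 3 reads over the 4 KO-labelled libraries as the limit that a count of 0 allows, it was at least 187-fold lower than in WT clone2 and at least 193-fold lower than in WT clone1 (edgeR adjusted p = 6.5e-06 over both WT lines). In the 8 WT libraries Rprl2 had 8.72 to 13.2% as many reads as Rprl3. Reads that lie wholly in stretches where the pair is identical cannot be assigned to one or the other. How far the 2 counts are independent was not tested. Both calls held under every alternative run, with an adjusted p of at most 7.0e-05 for Rprl2 over both WT lines. The 2 WT lines did not differ past the test in either RNA: WT clone2 over WT clone1 was 0.03 ± 0.25 for Rprl3 (95% interval -0.46 to 0.52) and -0.05 ± 0.31 for Rprl2 (-0.65 to 0.56).

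**Figure D2:**
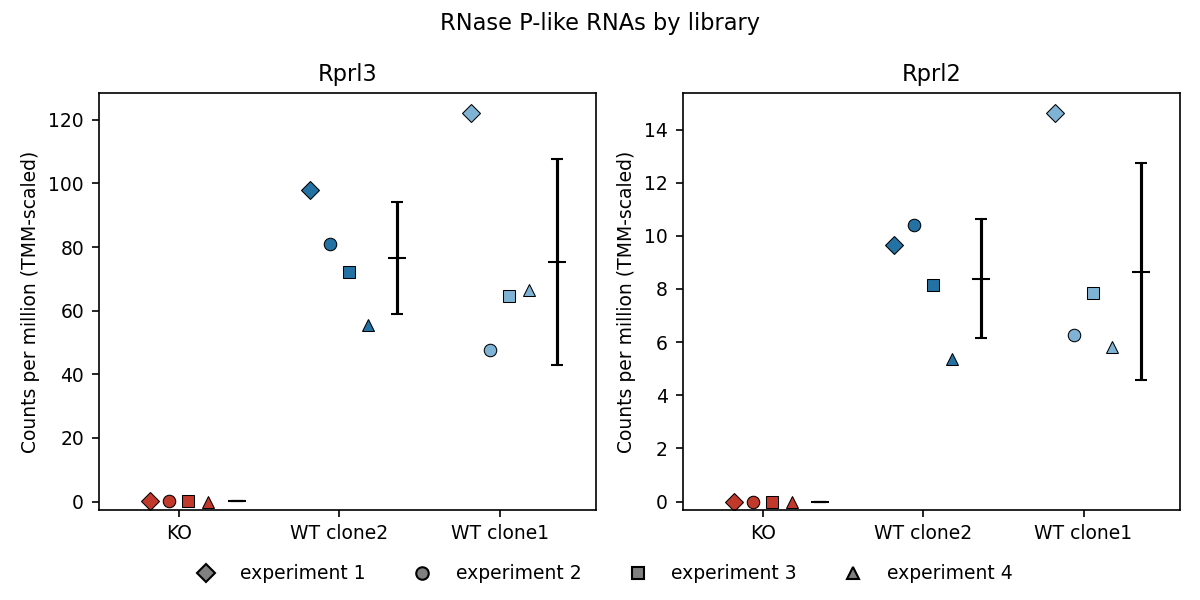
CPM (TMM-scaled, linear axes) of Rprl3 and Rprl2 in each library of the KO-labelled line, WT clone2 and WT clone1; marker shape gives the experiment and the bar the mean ± SD (n = 4). The KO-labelled libraries reach at most 0.172 CPM for Rprl3 and 0 CPM for Rprl2, while no WT library is below 47.7 CPM and 5.36 CPM.

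The nearest tested protein-coding gene on either side of each RNA of the pair was looked at next. Trappc5, 122 kb from Rprl3 towards lower coordinates, was higher in the KO-labelled line than in both WT lines (log2 fold change 0.37 ± 0.08; edgeR adjusted p = 0.00914). Evi5l, 363 kb from it on the other side, was at -0.18 ± 0.11 and did not pass (adjusted p = 0.284). Next to Rprl2, Tbl1xr1, 34.8 kb away towards lower coordinates, was at -0.47 ± 0.23 (edgeR adjusted p = 0.175). Naaladl2, 1546 kb away on the other side, was lower, at -3.42 ± 0.95 (adjusted p = 0.0248). By line, Naaladl2 was at -4.17 ± 0.56 over WT clone2 (adjusted p = 5.5e-05). Over WT clone1 it was at -1.73 ± 0.67 and did not pass (adjusted p = 0.0612). Among 11 protein subunits of RNase P and RNase MRP, 1 passed the test against both WT lines and was higher: Pop4, a subunit shared by both enzymes, averaged 44.7 CPM in the KO-labelled libraries and 17.3 CPM in the WT libraries (log2 fold change 1.37 ± 0.18; adjusted p = 0.000228), a call that held without each of the 12 libraries. The other 10 did not pass, and the median of the 11 was 0.18, against -0.03 over all genes. Proteins named here and further on were taken from the lists because they passed the test, after their values were seen.

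The 7S RNAs were the most abundant class, and 1 of the 4 passed 1 comparison of lines without the experiment number as a block. Rn7sk, the 7SK RNA that holds the transcription elongation kinase Cdk9 inactive (chr9:78082585-78082915), was at 1708, 1661, 1443 and 1679 CPM in the KO-labelled libraries, at 2744, 1572, 1483 and 2179 CPM in WT clone2 and at 1573, 975, 1337 and 1634 CPM in WT clone1. WT clone2 was above WT clone1 by 0.53 ± 0.20 (edgeR adjusted p = 0.0439), although the lines overlapped. That call was lost without the 3 experiment 1 libraries, without the filter on low counts and without 7 of the 12 libraries in turn (adjusted p = 0.0184 to 0.163 over the 12). The KO-labelled line was at -0.30 ± 0.20 over WT clone2 (95% interval -0.68 to 0.09) and at 0.23 ± 0.20 over WT clone1 (-0.15 to 0.62), neither past the test. Of 7 proteins of the 7SK complex, Cdk9 itself was higher in the KO-labelled line than in both WT lines (0.51 ± 0.07; adjusted p = 0.000324) and the other 6 did not pass.

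Rn7s2 and Rn7s1, both 7SL RNA genes of the signal recognition particle, lie on chromosome 12 and are identical over their 300 bases, so their reads cannot be assigned to one or the other and their separate levels depend on the counting. Rn7s2 was at 511, 292, 253 and 221 CPM in the KO-labelled libraries, at 643, 533, 472 and 374 CPM in WT clone2 and at 619.9, 238, 396 and 265 CPM in WT clone1. The KO-labelled libraries overlapped both WT lines, and the log2 fold change was -0.66 ± 0.31 over WT clone2 (adjusted p = 0.112) and -0.25 ± 0.31 over WT clone1 (adjusted p = 0.572). WT clone2 over WT clone1 was 0.41 ± 0.31 (edgeR adjusted p = 0.313). With the experiment number as a block, taken to pair these 2 lines but fitted over all 12 libraries, it was 0.48 ± 0.15 (edgeR adjusted p = 0.0188). Without the 3 experiment 1 libraries the difference from WT clone2 passed for Rn7s2 and for Rn7s1 (edgeR adjusted p = 0.00339 and 0.0434, both lower in the KO-labelled line). Rn7s1 was at 295, 176, 191 and 149 CPM in the KO-labelled libraries, at 244, 270.5, 257 and 189.6 CPM in WT clone2 and at 329.6, 132, 211 and 150.4 CPM in WT clone1. Rn7s6, 83.2% identical to the other pair, was at 169, 102, 98.9 and 76.9 CPM in the KO-labelled libraries, at 79.3, 99.2, 98.9 and 60.9 CPM in WT clone2 and at 134, 44.3, 86.5 and 43.8 CPM in WT clone1, and passed no comparison of lines in the fit without the block. Of the 7 tested proteins of the signal recognition particle, Srp72 was higher and Srp19 lower in the KO-labelled line than in both WT lines (0.20 ± 0.06 and -0.42 ± 0.13; adjusted p = 0.0269 and 0.0346), calls lost without 3 and 6 of the 12 libraries in turn.

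The spliceosomal U RNAs were at low levels. Rnu1a1, Rnu2-10, Rnu5g and Rnu12 encode U1, which recognises the 5′ splice site, U2, which binds the branch point, U5, which holds the exons, and U12 of the minor spliceosome. Their means over the 12 libraries were 1.99, 1.43, 1.20 and 1.03 CPM, and none of the 4 passed any of the 4 comparisons of lines. The widest difference was that of Rnu12, at 1.78, 1.12, 1.05 and 1.27 CPM in the KO-labelled libraries, at 1.49, 1.14, 0.498 and 0.903 CPM in WT clone2 and at 0.833, 0.556, 0.584 and 1.19 CPM in WT clone1. Its log2 fold change was 0.74 ± 0.34 over WT clone1 (adjusted p = 0.115), with overlapping libraries. Rnu1a1 has 3 near-identical copies listed as separate entries, with 8926 counts together, Rnu2-10 has 6 with 21085 counts and Rnu5g has 1 with 278, so reads could be split among them and these 3 values are uncertain. Rnu5g also overlaps Parp16 on the opposite strand. The 8-letter Sm site ATTTNTGG, where the Sm protein ring assembles, was found on the transcribed strand of 2 of the 4. It was also present in 1.01% of RefSeq promoter windows, in 150 bases. Of 15 Sm and U snRNP proteins, Snrpb was higher and Snrpa1 lower in the KO-labelled line (0.39 ± 0.12 and -0.68 ± 0.21; adjusted p = 0.0444 and 0.0385), both lost without most single libraries (10 and 8 of 12).

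No box C/D snoRNA passed a comparison of lines in the fit without the experiment number as a block. The 6 had log2 fold changes over both WT lines between -0.25 (Snord13) and 0.33 (Snord15a), with a median of 0.12. The 2 with the highest CPM were Snord17 and Snord15a. Snord17 averaged 8.02 ± 1.39 CPM in the KO-labelled line, 9.25 ± 7.98 CPM in WT clone2 and 5.70 ± 2.32 CPM in WT clone1 (SD, n = 4 each), and the experiment 1 library of WT clone2 was at 21.2 CPM. Its log2 fold change over WT clone2 was -0.22 ± 0.43, and without the 3 experiment 1 libraries it turned to 0.46, higher in the KO-labelled line (edgeR adjusted p = 0.0232), as it then was over WT clone1 and both pooled (adjusted p = 0.00307 and 0.0201). Snord43, from an intron of the ribosomal protein gene Rpl3, and Snord55 were at 3.20 ± 0.651 and 1.31 ± 0.179 CPM in the KO-labelled line, at 3.04 ± 1.12 and 1.40 ± 0.428 CPM in WT clone2 and at 2.73 ± 0.750 and 1.52 ± 0.358 CPM in WT clone1. Of the 4 core box C/D proteins, Nop56 was higher in the KO-labelled line (0.33 ± 0.10; adjusted p = 0.0323; lost without 5 of 12 libraries in turn).

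Among the box H/ACA snoRNAs, Snora31 and Snora47 set single lines apart. Both are intronic, Snora31 in Tpt1 (chr14:76085345-76085474, plus strand) and Snora47 in Zbed3 (chr13:95467108-95467245, plus strand). They are shown because they are the intron-encoded members that differed between lines. Capitals mark ACA with the 3 bases that follow it where these end the annotated sequence. The annotated Snora47 ends in ACATTGT, so its ACA does not fall at that exact place and is not marked.
Snora31: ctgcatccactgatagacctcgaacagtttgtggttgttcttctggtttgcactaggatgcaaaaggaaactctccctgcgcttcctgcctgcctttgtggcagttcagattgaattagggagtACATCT
Snora47: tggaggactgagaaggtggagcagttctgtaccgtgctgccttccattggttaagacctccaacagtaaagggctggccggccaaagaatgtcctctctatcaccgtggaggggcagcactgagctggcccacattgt
Snora31 was at 2.01, 2.25, 2.42 and 2.65 CPM in the KO-labelled libraries, at 2.61, 2.23, 1.88 and 2.03 CPM in WT clone2 and at 1.30, 1.11, 1.43 and 1.13 CPM in WT clone1. All KO-labelled libraries and all WT clone2 libraries lay above all WT clone1 libraries, which held for 15.4% and 20.5% of all genes. The log2 fold change over WT clone1 was 0.90 ± 0.18 for the KO-labelled line and 0.81 ± 0.18 for WT clone2 (edgeR adjusted p = 0.00173 and 0.00272), and the KO-labelled line over WT clone2 was 0.09 ± 0.17 (95% interval -0.25 to 0.42). Its host Tpt1, which encodes the translationally controlled tumour protein, was 0.62 ± 0.11 for the KO-labelled line over WT clone1 (adjusted p = 0.000533), 0.52 ± 0.11 over WT clone2 (adjusted p = 0.00169) and 0.09 ± 0.11 for WT clone2 over WT clone1 (adjusted p = 0.509).

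Snora47 was at 2.24, 2.13, 2.49 and 1.56 CPM in the KO-labelled libraries, at 4.48, 4.97, 4.70 and 3.56 CPM in WT clone2 and at 1.61, 2.61, 2.87 and 1.75 CPM in WT clone1. Here WT clone2 stood apart: all its libraries lay above those of the other 2 lines. All KO-labelled libraries lay below all WT clone2 libraries in 19.7% of genes. The KO-labelled line was below WT clone2 at a log2 fold change of -1.07 ± 0.22 (adjusted p = 0.00152), WT clone2 was above WT clone1 by 1.0 ± 0.21 (adjusted p = 0.00204), and the KO-labelled line was at -0.08 ± 0.23 over WT clone1 (95% interval -0.52 to 0.37). Its host Zbed3, a zinc-finger gene, was at -0.13 ± 0.10, 0.36 ± 0.10 and 0.23 ± 0.10 in the same 3 comparisons, and passed in the second (adjusted p = 0.00793). The calls of both snoRNAs held without each of the 12 libraries. Between the WT lines 3 members passed, all higher in WT clone2 (Snora47, Snora31 and Rn7sk), where 42.6% of all genes passed and 20.7% were higher. With the experiment number as a block 5 passed, Rn7s2 and Scarna6 being added, where 7259 of all 14392 genes passed. Snora23 and Snora57 passed no comparison of lines; Snora57 has a listed near-identical copy, Gm26132, with 417 counts. None of the 6 box H/ACA proteins passed against both WT lines.

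**Figure D3:**
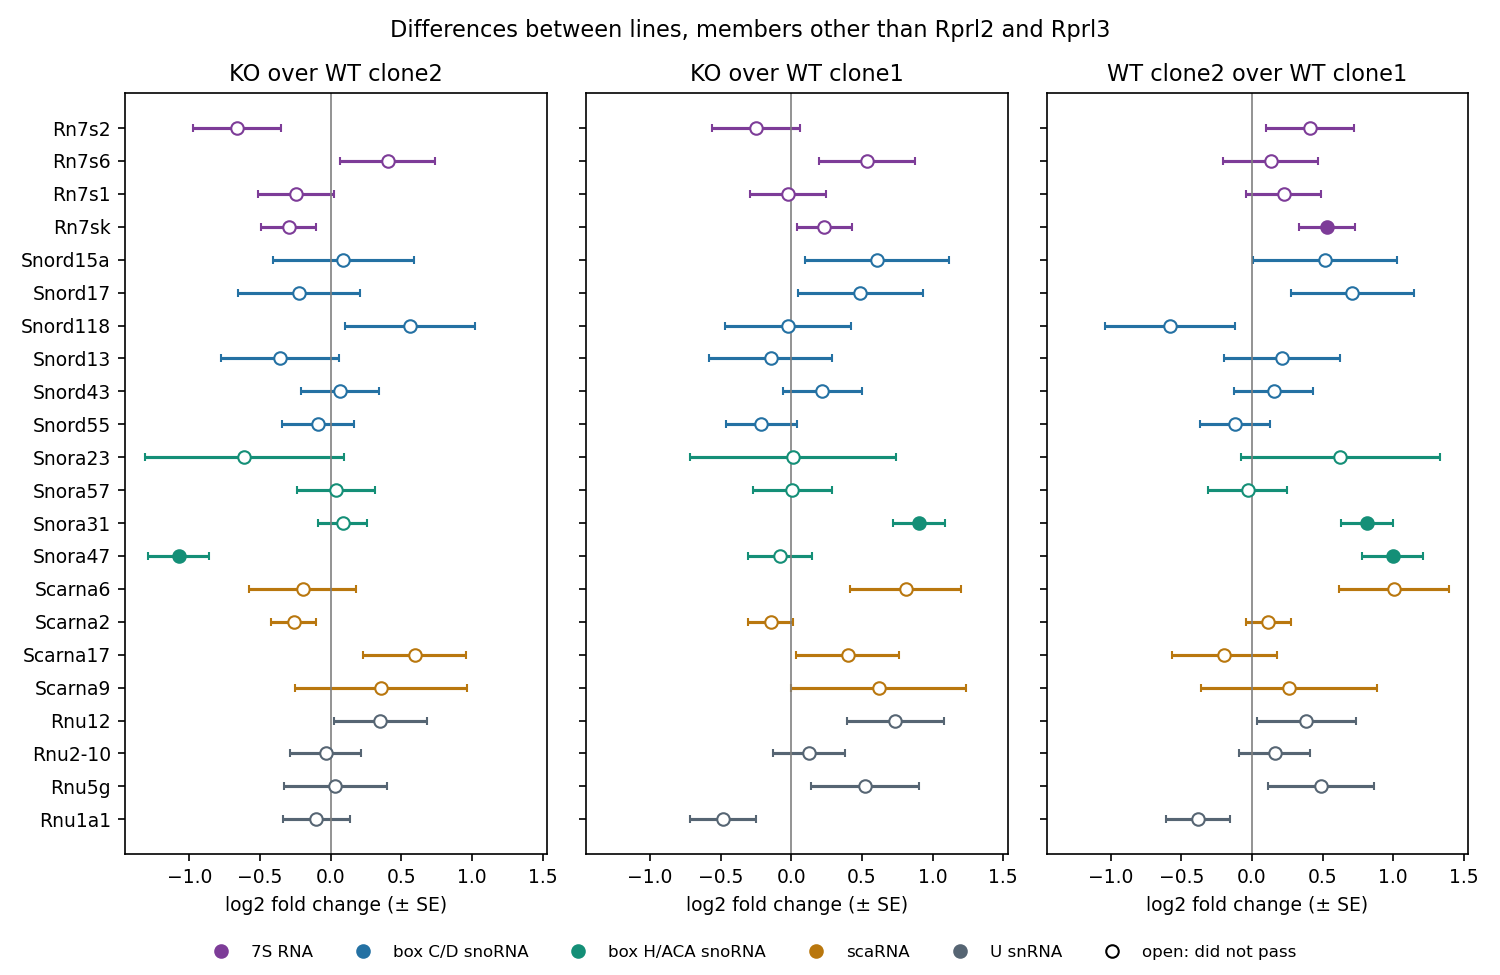
Log2 fold change ± SE (edgeR) for 22 members, leaving out Rprl2 and Rprl3, which lie off this scale: the KO-labelled line over WT clone2, the KO-labelled line over WT clone1, and WT clone2 over WT clone1. Filled points passed an adjusted p of 0.05: Snora47 in the first panel, Snora31 in the second, and Snora47, Snora31 and Rn7sk in the third.

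The scaRNAs passed no comparison of lines in the fit without the experiment number as a block. Scarna2, which in human guides modification of the U2 RNA, was at 103, 111, 96.7 and 77.7 CPM in the KO-labelled libraries, at 125, 145, 101 and 94.5 CPM in WT clone2 and at 123, 82.6, 118 and 105 CPM in WT clone1. Its KO-labelled level over both WT lines was -0.20 ± 0.14 (95% interval -0.49 to 0.08). Scarna6, from an intron of the autophagy gene Atg16l1, averaged 8.31 ± 2.97 CPM in the KO-labelled line, 9.47 ± 4.81 CPM in WT clone2 and 4.72 ± 2.51 CPM in WT clone1. WT clone2 over WT clone1 was 1.01 ± 0.39 for Scarna6, just short of the threshold (adjusted p = 0.0520, from 0.00938 to 0.231 with 1 library left out); by DESeq2 it passed. With the block it was 0.99 ± 0.20 (edgeR adjusted p = 0.00150). Scarna17 was at 1.79 ± 0.236 CPM in the KO-labelled line, 1.20 ± 0.738 CPM in WT clone2 and 1.36 ± 0.393 CPM in WT clone1. Of 8 tested proteins of the Cajal body and SMN complex, 1 was higher in the KO-labelled line against both WT lines, Gemin2 (0.33 ± 0.11; adjusted p = 0.0459), lost without 10 of 12 libraries in turn.

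Genes of the machinery that makes small RNAs were compared between the KO-labelled line and both WT lines. Of 20 genes of RNA polymerase III and the snRNA activator complex, 5 were higher and 1 lower, with a median of 0.11. The snRNA activator subunit Snapc2 was at 0.69 ± 0.11 (adjusted p = 0.000621) and the polymerase subunit Polr3d at 0.42 ± 0.11 (adjusted p = 0.0145); with 1 library left out, 1 to 7 of the 20 passed. Of 14 Integrator subunits, which cut the ends of U RNAs, 2 were lower, Ints10 (-0.50 ± 0.09) and Ints12 (-0.39 ± 0.08). Of 16 tested noncoding snoRNA host genes 4 were higher and none lower, among them Zfas1 (0.75 ± 0.18; adjusted p = 0.0109) and Snhg17 (0.31 ± 0.07; adjusted p = 0.00960), with a median of 0.12. Of 11 snoRNP assembly proteins 3 were higher, and of 5 Y RNA-binding proteins none passed. Over all genes 18.8% passed, 8.47% higher and 10.3% lower, and no list was tested against these shares.

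The experiment number went with a broader difference. Experiment 1 against experiments 2 to 4, with the line as a covariate, gave 11 of 24 members past the test, 10 higher and 1 lower, where 18.6% of all genes passed, 7.17% higher and 11.4% lower. The median log2 fold change of the members was 0.60, against -0.01 over all genes, and 21 of the 24 were above 0. In 10 members experiment 1 was the highest library of every line, which held for 8.73% of all genes, and in 1 it was the lowest of every line (9.16%). Among the 10 is Rprl3, which in the KO-labelled line had 3 reads in experiment 1 against 1, 1 and 0. By class, 4 of 6 box C/D snoRNAs, 2 of 4 box H/ACA snoRNAs, 2 of 4 7S RNAs, 1 of 2 RNase P-like RNAs and 1 of 4 scaRNAs were higher, 1 scaRNA was lower, and none of the 4 U snRNAs passed. The 10 that were higher were Snora23, Snord15a, Snord17, Snord118, Scarna6, Snord13, Rn7s2, Rprl3, Snora57 and Rn7s1; Snord118 and Snord13 are named although they fall outside the naming rule, after their values were seen.

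The intron-encoded snoRNAs and scaRNA with the largest differences are shown with their boxes, which are the sites where the core proteins bind. Capitals mark the letters TGATGA (box C) within 20 bases of the 5′ end, CTGA (box D) within 20 bases of the 3′ end, and for Snora23 ACANNN at the 3′ end.
Snora23: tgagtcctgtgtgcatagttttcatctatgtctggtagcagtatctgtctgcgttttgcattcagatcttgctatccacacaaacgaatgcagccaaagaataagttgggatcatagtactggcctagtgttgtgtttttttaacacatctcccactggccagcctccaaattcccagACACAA
Snord15a: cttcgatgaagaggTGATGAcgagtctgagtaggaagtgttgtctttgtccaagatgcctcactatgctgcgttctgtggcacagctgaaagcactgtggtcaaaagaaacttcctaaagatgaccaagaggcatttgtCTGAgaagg
Snord17: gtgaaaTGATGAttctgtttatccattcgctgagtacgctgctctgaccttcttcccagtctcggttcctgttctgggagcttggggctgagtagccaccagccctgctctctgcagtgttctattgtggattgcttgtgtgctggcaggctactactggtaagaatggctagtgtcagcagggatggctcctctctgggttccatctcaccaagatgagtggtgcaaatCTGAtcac
Scarna9: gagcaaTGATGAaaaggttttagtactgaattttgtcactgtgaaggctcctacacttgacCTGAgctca
Snora23 lies in an intron of Ipo7 (chr7:109645571-109645754, plus strand), Snord15a in an intron of Rps3 (chr7:99131992-99132139, minus strand), Snord17 in an intron of Snx5 (chr2:144107899-144108136, minus strand) and Scarna9 in an intron of Cep295 (chr9:15237560-15237629, minus strand), all in GRCm39. On the transcribed strand CTGA was found in all 6 box C/D snoRNAs and all 4 scaRNAs, TGATGA in 3 of 6 and 3 of 4, and ACANNN in 3 of 4 box H/ACA snoRNAs. ACANNN was looked for only in the last 6 bases, and the ACA of Snora47 starts just before them. In 20 bases (6 for ACANNN) of 32851 RefSeq promoter windows these letters occurred in 8.54%, 0.365% and 1.82% of windows.

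Snora23 had the largest difference. It was at 5.33 CPM in experiment 1 against 2.07, 1.90 and 2.19 CPM in experiments 2 to 4 of the KO-labelled line, at 11.8 CPM against 1.43, 2.65 and 1.30 CPM in WT clone2, and at 6.19 CPM against 2.11, 2.18 and 0.813 CPM in WT clone1. All 3 experiment 1 libraries were above all 9 others, and experiment 1 over the rest was 2.03 ± 0.26 on the log2 scale (edgeR adjusted p = 0.00170). The host gene Ipo7, an importin that carries ribosomal proteins into the nucleus, went the other way, at -0.89 ± 0.18 (adjusted p = 0.00815). Snora23 also overlaps 1600010M07Rik on the opposite strand, and without a known strand setting their reads cannot be told apart.

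Snord15a was at 9.41 CPM in experiment 1 against 4.73, 4.26 and 4.44 CPM in experiments 2 to 4 of the KO-labelled line, at 11.8 CPM against 2.97, 3.54 and 2.82 CPM in WT clone2, and at 6.66 CPM against 1.50, 3.67 and 3.13 CPM in WT clone1. The log2 fold change was 1.44 ± 0.20 (adjusted p = 0.00219), and that of its host, the ribosomal protein gene Rps3, was 0.45 ± 0.08 (adjusted p = 0.00604). Snord17 was at 10.1 CPM in experiment 1 against 7.57, 7.27 and 7.16 CPM in experiments 2 to 4 of the KO-labelled line, at 21.2 CPM against 5.25, 5.81 and 4.74 CPM in WT clone2, and at 9.16 CPM against 4.12, 4.73 and 4.81 CPM in WT clone1. Its log2 fold change was 1.23 ± 0.20 (adjusted p = 0.00445), while its host, the sorting nexin gene Snx5, was at 0.00 ± 0.09 (adjusted p = 0.989). For both snoRNAs, as for Snora23, Snord13 and Snora57, all 3 experiment 1 libraries lay above all 9 others; 1.87% of all genes did so.

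Snord118, the U8 RNA needed for processing of the large-subunit ribosomal RNAs, and Snord13, the U13 RNA that acts on the 18S RNA, are made independently of splicing in mammals and were higher as well, by 1.08 ± 0.27 and 0.99 ± 0.25 (adjusted p = 0.0159 and 0.0175). Snord118 lies inside the span of Tmem107, which was at 0.33 ± 0.12 and did not pass. Snora57 was higher by 0.65 ± 0.18 (edgeR adjusted p = 0.0248). It overlaps Lbhd1 on the opposite strand, and without a known strand setting their reads cannot be told apart. Snord43 and Snord55 did not pass, at 0.27 ± 0.24 and 0.26 ± 0.22, although Rpl3, the host of Snord43, did, at 0.37 ± 0.09 (adjusted p = 0.0169). Snora31 and Snora47, which differed between lines, were at 0.07 ± 0.17 and -0.12 ± 0.20 between experiments.

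Among the scaRNAs the direction was mixed. Scarna6 was at 12.1 CPM in experiment 1 against 9.11, 5.37 and 6.64 CPM in experiments 2 to 4 of the KO-labelled line, at 16.7 CPM against 7.54, 6.97 and 6.72 CPM in WT clone2, and at 8.28 CPM against 2.56, 4.62 and 3.44 CPM in WT clone1, a log2 fold change of 1.08 ± 0.17 (adjusted p = 0.00372). Its host Atg16l1 was at 0.03 ± 0.07 (adjusted p = 0.781); Gm53572 overlaps Scarna6 on the opposite strand. Scarna9, a guide for U2 in human, was at 1.15 CPM in experiment 1 against 5.74, 4.52 and 4.50 CPM in experiments 2 to 4 of the KO-labelled line, at 0.747 CPM against 5.94, 0.940 and 4.97 CPM in WT clone2, and at 1.25 CPM against 2.45, 3.19 and 3.50 CPM in WT clone1. It was the 1 member lower in experiment 1, at -1.91 ± 0.44 (adjusted p = 0.0119), and the experiment 3 library of WT clone2 was as low as experiment 1. Its host Cep295, a centriole gene, was lower too, at -0.94 ± 0.18 (adjusted p = 0.00740). Scarna2 and Scarna17 did not pass, at 0.18 ± 0.14 (95% interval -0.09 to 0.45) and -0.01 ± 0.34 (-0.68 to 0.65).

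Rn7s2, Rn7s1 and Rprl3 were also higher in experiment 1. Which polymerase makes the RNase P-like RNAs was not tested. Rn7s2 was higher by 0.86 ± 0.15 and Rn7s1 by 0.63 ± 0.17 (adjusted p = 0.00654 and 0.0225). Experiment 1 of Rn7s2 was 2.00 times the mean of experiments 2 to 4 in the KO-labelled line, 1.40 times in WT clone2 and 2.07 times in WT clone1. For Rn7s1 it was 1.71 times in the KO-labelled line, 1.02 times in WT clone2 and 2.00 times in WT clone1. As Rn7s2 and Rn7s1 are identical in sequence, their calls are not separate results. Rn7s6 and Rn7sk did not pass, at 0.70 ± 0.24 and 0.35 ± 0.15. Rprl3 was higher by 0.79 ± 0.16 (adjusted p = 0.00821) and Rprl2 was at 0.73 ± 0.25 (adjusted p = 0.0689); the KO-labelled line added at most 3 reads in a library to either value. The U RNAs lay between 0.05 (Rnu1a1) and 0.56 (Rnu12).

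**Figure D4:**
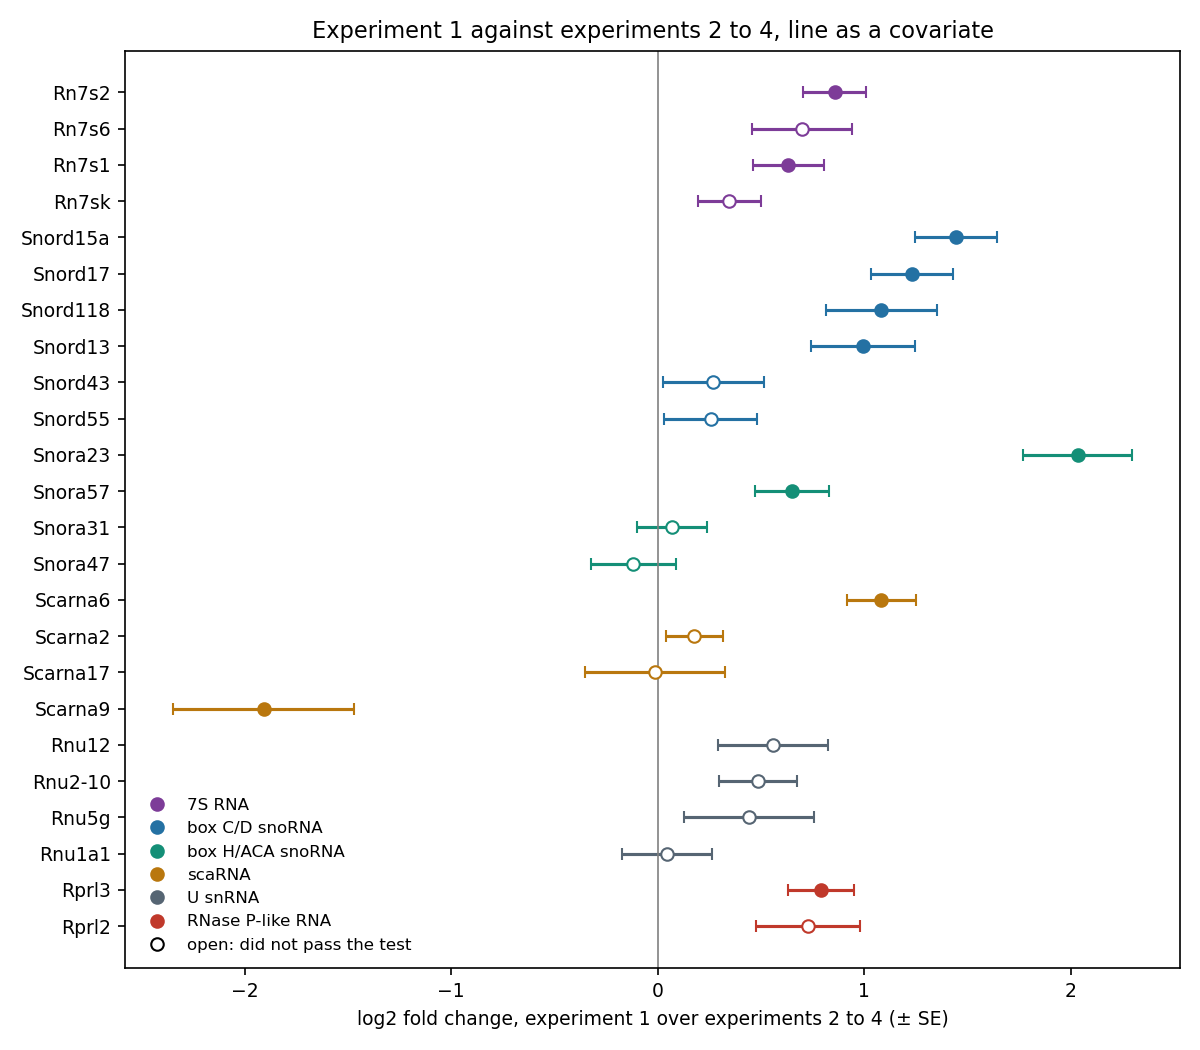
Log2 fold change ± SE of experiment 1 (3 libraries) over experiments 2 to 4 (9 libraries), edgeR with the line as a covariate, for all 24 members by class; filled points passed an adjusted p of 0.05. Of 11 filled points, 10 lie right of 0, up to Snora23 at 2.03, and Scarna9 lies at -1.91.

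**Figure D5:**
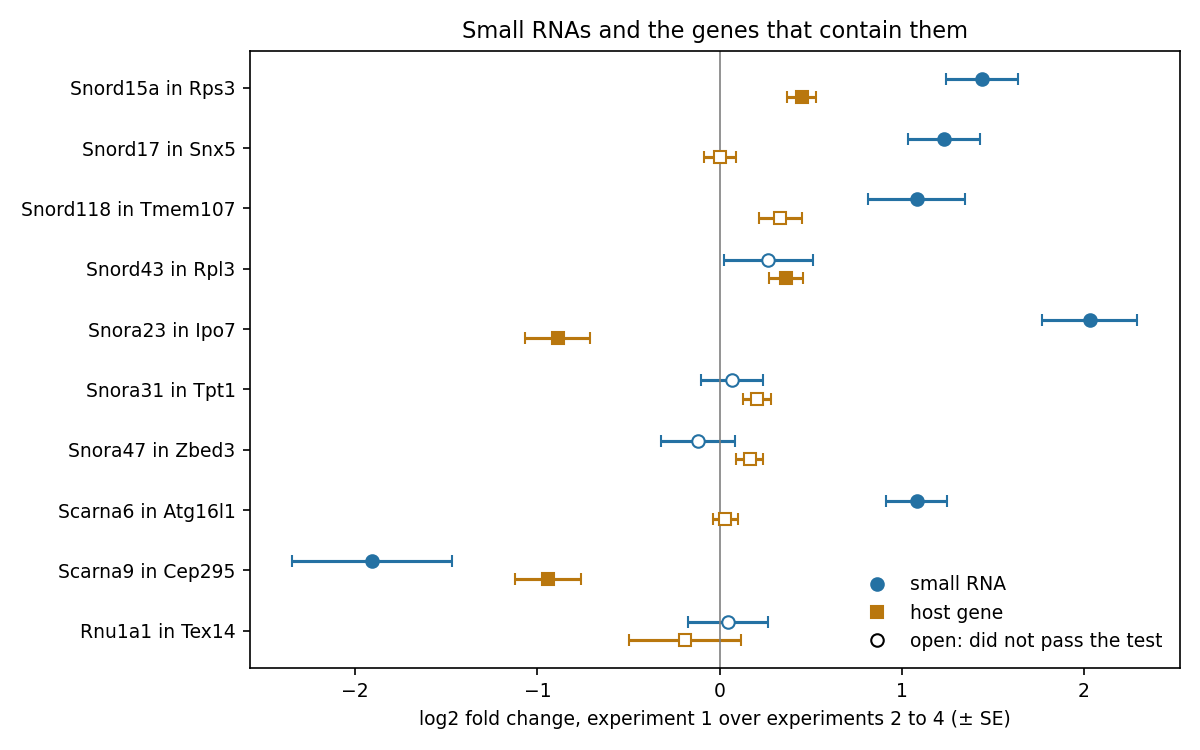
The same log2 fold change ± SE for 10 small RNAs (circles) and the listed genes that contain them on the same strand (squares). Snora23 and its host Ipo7 lie on opposite sides of 0 and Scarna9 and its host Cep295 on the same side; Snord17 and Scarna6 are filled where their hosts Snx5 and Atg16l1 are open.

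Of the 10 host genes shown, 4 passed between experiments: Rps3 and Rpl3 higher, Ipo7 and Cep295 lower. With 1 library left out 0 to 5 of the host genes passed. None passed without the experiment 1 libraries of the KO-labelled line and WT clone1, or without the line covariate. Over all genes 7.17% were higher in experiment 1 and 11.4% lower. Other measures moved with experiment 1 beside the members. Of 44 other tested entries annotated as small noncoding RNA, 18 were higher and 2 lower, with a median of 0.53. Replication-dependent histone genes, whose messages also lack a poly(A) tail, were higher in 41 of 60 and lower in none, with a median of 0.44, and summed to 7220 to 9586 CPM in experiment 1, against 5292 to 6941 CPM in experiments 2 to 4. Ribosomal protein genes took 4.67 to 5.22% of the counts in experiment 1, against 3.19 to 4.27% in experiments 2 to 4. Their part in the members' result was not tested. How far the counts of histone genes and other small RNA entries hold with libraries left out was not tested either.

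Without the experiment 1 library of the KO-labelled line 5 of 24 passed, and without that of WT clone1 4 passed; with neither, 3 remained among the 11 (Snora23, Snord15a and Snord17). The fitted log2 fold changes of the 7 members that lost a call kept their direction with each library left out, at 0.91 to 1.28 for Snord118, 0.94 to 1.09 for Snord13, 0.78 to 1.02 for Rn7s2, 0.46 to 0.89 for Rn7s1, 0.54 to 1.05 for Rprl3, 0.50 to 0.75 for Snora57 and -2.21 to -1.68 for Scarna9. Over all genes, 215 passed without the experiment 1 library of the KO-labelled line and 78 without that of WT clone1. Without both of these libraries 55 genes passed, and 2673 with all libraries. Snora23, Snord15a, Snord17 and Scarna6 passed with each of the 12 libraries left out in turn. Without the line covariate Snora23 alone passed among the members, and 9 genes over all.

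Calls among the protein partners in experiment 1 stand beside 7.17% of all genes higher and 11.4% lower, and no list was tested against them. Of 15 Sm and U snRNP proteins 7 were higher and none lower (median 0.26), led by the Sm ring protein Snrpd2 at 0.92 ± 0.07 (adjusted p = 4.9e-05), and Snrpg at 0.72 ± 0.12 (adjusted p = 0.00446). Of 11 RNase P and MRP proteins Pop5, Pop7 and Rpp25l were higher, by 0.46 ± 0.09, 0.30 ± 0.09 and 0.39 ± 0.11. Of 6 box H/ACA proteins Nop10 and Nhp2 were higher, by 0.35 ± 0.07 and 0.22 ± 0.06, and of 4 box C/D proteins Nop58 was lower, at -0.52 ± 0.12. Of 5 Y RNA-binding proteins 4 were lower (median -0.61), among them Ssb, the La protein that binds the 3′ ends of polymerase III transcripts (-1.0 ± 0.21; adjusted p = 0.00895), and Ro60 (-1.0 ± 0.20; adjusted p = 0.00815). Of 20 polymerase III and activator genes 1 was higher and 3 lower, with the initiation factor Bdp1 at -0.86 ± 0.18 (adjusted p = 0.00839). Of 11 assembly proteins 4 were higher and 1 lower, of 8 Cajal body proteins 1 was higher, of 14 Integrator subunits 3 were lower, of 7 signal recognition particle proteins and of 7 7SK proteins 1 each was lower, and of 16 noncoding host genes 3 were higher and 1 lower. With 1 library left out, 1 to 8 of the 15 Sm and U snRNP proteins passed, with 3 passing without the experiment 1 library of the KO-labelled line and 1 without that of WT clone1. Of the 5 Y RNA-binding proteins 0 to 5 passed, with 0 passing without either of these libraries. Of the proteins named for experiment 1, Snrpd2 kept its call without each library, and each of the others lost it without the experiment 1 library of WT clone1 or of the KO-labelled line.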

How the data were processed

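RNA-seq libraries of 1 KO-labelled and 2 wild-type fibroblast lines, 4 each, were analysed from a table of raw counts per gene. Per the submitters' processing notes, the authors used FastQC and STAR 2.5.4a on GRCm39; the sources used here give no strand setting, RNA selection or GENCODE release. The deposited counts are whole numbers and not normalized. The table also holds the authors' own log2 fold changes and adjusted p-values, deposited without a stated direction. It holds 51 entries with no identifier, which took 2.04 to 5.25% of the counts and stayed out of library sizes and tests. Libraries held 15425327 to 23982524 counts. Exact Poisson intervals cover counting error only, whereas the 95% intervals of log2 fold changes are the fit's standard error times 1.96 on either side and include the spread among libraries.

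Counts were scaled by TMM and tested with edgeR 4.0.16 (quasi-likelihood F test, two-sided, filterByExpr by line, R 4.3.3). Benjamini-Hochberg adjustment ran over 14392 genes, with a threshold of 0.05. The lines were compared in 1 fit with a mean per line, both WT lines pooled in a fit of 2 groups, and experiment 1 with the line as a covariate. CPM are counts relative to the TMM-scaled library total. DESeq2 1.42.0, other scalings, filters and libraries left out were tried as alternatives. Same-numbered libraries of WT clone2 and WT clone1 deviated together in 4 of 4 pairs (correlation over 0.1, from 0.109 to 0.297), so the experiment number was taken to pair those 2 lines, on the data and not the labels. The main comparisons of lines were fitted without this block. Where the block was used, it was fitted over all 12 libraries, the KO-labelled ones included. The scripts were tested on simulated data. Members were matched to GENCODE vM39 on GRCm39, copies were found with blastn 2.17.0 (at least 95% identity over 90% of the length) and identities computed with Biopython 1.88 under Python 3.11.15. Printed sequences were read from the GRCm39 genome. Chi-square per degree of freedom between replicates was 10.3 to 66.5, so no library was a duplicate of another.

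The members and the gene lists were chosen with earlier results of these data known. Text names every Rnu, Rn7s and Rprl member, the 4 snoRNAs or scaRNAs of each class with the highest CPM, members called between the KO-labelled line and both WT lines, and up to 4 called members per direction in each other comparison.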

Additional observations from a re-analysis of the deposited data

Results flagged for a closer look

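In 8 of 72 groups of 4 libraries, 1 per member and line, a single library stood far from the other 3, and in all 8 it was the experiment 1 library, on the high side; chance alone flags about 1 in 20 such groups. Snord15a was at 9.41 CPM in experiment 1 of the KO-labelled line and at 11.8 CPM in that of WT clone2. Snord17 was at 10.1 CPM in experiment 1 of the KO-labelled line, at 21.2 CPM in that of WT clone2 and at 9.16 CPM in that of WT clone1. Snora23 was at 5.33 CPM in experiment 1 of the KO-labelled line and at 11.8 CPM in that of WT clone2, and Scarna6 at 16.7 CPM in that of WT clone2.

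The size of the experiment 1 difference itself differed between the lines for 1 of 24 members, Snord17 (interaction of line and experiment, edgeR adjusted p = 0.0169, a test added after the data were seen). Its experiment 1 library was 1.38 times the mean of experiments 2 to 4 in the KO-labelled line, 4.02 times in WT clone2 and 2.01 times in WT clone1. Of all genes, 2.71% passed that test.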

How the results depend on the processing

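Of 2256 values of single members under an alternative, 2054 kept sign and call, 123 changed sign with no call on either side, 41 lost a call, 37 gained one and 1 reversed: Snord17 in the KO-labelled line against WT clone2 was 0.46 without the 3 experiment 1 libraries, an alternative chosen after seeing the data, and the cause was not tested. With all libraries, 2, 3, 3, 3 and 11 members passed in the KO-labelled line against both WT lines, against WT clone2, against WT clone1, between WT clone2 and WT clone1, and in experiment 1. Against WT clone2 the count was 5 without the experiment 1 libraries of the KO-labelled line and WT clone1, 6 without all 3, and 3 to 4 with 1 library left out. Against WT clone1 it was 5 without the 3 experiment 1 libraries and 3 to 5 with 1 library left out. Between WT clone2 and WT clone1 it was 6 without the experiment 1 libraries of the KO-labelled line and WT clone1, 5 without all 3, and 2 to 4 with 1 left out. In experiment 1 it was 1 without the line covariate, 3 without the experiment 1 libraries of the KO-labelled line and WT clone1, and 4 to 13 with 1 left out. Against both WT lines it was 2 with each library left out, and 3 without the 3 experiment 1 libraries. Without these 3 libraries 2084 genes in all passed against both WT lines and 5610 against WT clone2. Against WT clone1 5646 then passed, and between WT clone2 and WT clone1 6494. Without the experiment 1 libraries of the KO-labelled line and WT clone1, 6121 genes passed against WT clone2 and 7216 between the WT lines. In experiment 1, 55 genes passed without those 2 libraries and 9 without the line covariate.

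With the experiment number as a replicate block, 6 members passed against WT clone1, 4 against WT clone2, 5 between WT clone2 and WT clone1, and 2 against both WT lines. Of all 14392 genes tested, 6329, 6703, 7259 and 2493 passed with the block, in the same order. The block added Snord15a, Rn7s6 and Scarna6 against WT clone1 (edgeR adjusted p = 0.0358, 0.0453 and 0.00515, all higher in the KO-labelled line), Rn7s2 against WT clone2 (adjusted p = 0.00208, lower), and Rn7s2 and Scarna6 between the WT lines; it changed no other call of a member. Between the KO-labelled line and WT clone2 3 of 4 same-number correlations were over 0.1 (0.0421 to 0.312), and with WT clone1 3 of 4 (0.0996 to 0.750), so the numbers were not taken to pair the KO-labelled line with either. The lowest value with WT clone1, 0.0996, was just under the limit of 0.1. The block fit holds the KO-labelled libraries all the same. So does the comparison of experiment 1 with experiments 2 to 4, which takes the number as shared by all 3 lines. Over the 3 pairs of lines 15 of 24 comparisons had a library correlate best with its own number, a hint from the data and not the design. Depth limits the low members: Snord13 had 156 counts over all libraries.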
